A study of Mus musculus with 3072 samples.

Results

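Of 768 wells sorted under the label HSC in this study of mouse bone marrow, 679 passed a filter on quality, and 65 of those held Mki67 transcripts at 20 CPM (counts scaled to the same total in each well) or more. These 65 wells are called cycling HSC here, and the remaining 614 are called other HSC wells. A well passed if it held 20000 or more counts and 1000 to 10000 detected genes, with no more than 20% of its counts on mitochondrial genes. The members were chosen by their Mki67 level alone, so Mki67 is described and never tested, and genes that share a programme with it were read in the same wells that it split. The wells came from 8 wild-type C57BL/6 mice that carried transplanted barcoded stem cells, 96 HSC wells a mouse, each well holding the Smart-seq2 library of a singly sorted marrow cell. Of these mice, 4 were control animals taken at week 32 after transplantation and 4 were platelet-depleted animals taken at week 28. Treatment and week coincided in all 8, so they cannot be told apart. All groups shared the transplantation and the barcoded donor cells, and the labels do not spell out HSC or name the markers of the sort.

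Ki-67, the protein of Mki67, coats mitotic chromosomes and is made by cells in the active phases of the cell cycle, while resting cells lack it. Most stem cells of adult marrow rest, and a minority copies DNA in S phase or prepares division in G2 and mitosis at any time. Cells in S phase express the loading and copying machinery of DNA replication, and cells in G2 and mitosis express cyclin B with its kinase Cdk1, spindle motors and the chromosome condensing enzymes. Top2a, a topoisomerase that untangles copied DNA, rises through S phase into mitosis.

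Both names in the label were looked at in the wells. Top2a, which did not choose the members, was at 20 CPM or more in 45 of 65 cycling wells (69.2%) and in 70 of 614 other wells (11.4%). Of 24 HSC marker genes 23 had counts in the cycling sums. So did all 20 genes of an erythroid list, so the presence of counts does not tell HSC from other cells. Together the HSC marker genes summed to 2183 to 2878 CPM per mouse in cycling and 3432 to 4836 CPM in other wells. In 60 of 65 members their sum lay under the median of other wells. The name HSC therefore rests on the sort label.

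Mki67 stood at 0 in 376 of the 614 other wells and between 0 and 20 CPM in 238. The 3 highest other wells held 19.1, 18.95 and 18.9 CPM, and the 3 lowest members held 21.5, 23.6 and 27.3 CPM. Between 5 and 20 CPM there were 18 wells, and 42 of the 65 members reached 100 CPM. The median member held 182 CPM and the highest 1577 CPM. No member rested on fewer than 5 Mki67 counts. By mouse, the median over members ran from 57.9 CPM in control mouse 2 to 322 CPM in depleted mouse 2, with 619 CPM in the single member of depleted mouse 3. The plot of Mki67 by well shows the few wells around the threshold.

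The members were spread unevenly over the mice. Control mice 1 to 4 gave 4 of 84, 6 of 80, 20 of 79 and 9 of 76 wells, which are 4.76%, 7.5%, 25.3% and 11.8%. Depleted mice 1 to 4 gave 7 of 90, 8 of 92, 1 of 86 and 10 of 92 wells, which are 7.78%, 8.70%, 1.16% and 10.9%. Control mouse 3 was high and depleted mouse 3 low, and the other 6 mice lay between 4.76% and 11.8%. The exact (Clopper-Pearson) 95% interval of control mouse 3 ran from 16.2% to 36.4% and that of depleted mouse 3 from 0.0294% to 6.31%. These intervals cover counting error only.

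Averaged over the 4 mice of each group, 12.4% ± 9.12 (SD) of control wells and 7.13% ± 4.18 (SD) of depleted wells were members. Depleted mice were lower by 5.23 percentage points, which did not exceed the spread between mice (exact two-sided permutation p = 0.400, where 0.0286 is the smallest possible). Without control mouse 3 the mean of the control group was 8.03% and the difference -0.908 points (exact permutation p = 0.800), so most of the difference in means rested on that mouse. Without depleted mouse 3 it was -3.24 points (exact permutation p = 0.800). Among the MkP wells of the 5 mice read here, the same threshold marked 30.2% to 53.2% of wells.

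Among the members, 2 wells stood apart by genes of other lineages. A member of depleted mouse 4 held 39461 CPM over 10 neutrophil genes, with Ngp at 10156 and S100a8 at 9263 CPM, while the highest of the other 64 members held 41.2 CPM and 54 of the 65 were at 0. It also held Hlf at 182 CPM. A member of control mouse 4 held 16816 CPM over the erythroid list, with carbonic anhydrase 1 (Car1) at 8346 and the erythroid factor Klf1 at 276 CPM, and had Procr and Hlf at 0. Without both wells the share differed by -5.18 percentage points between treatments, and 988 genes were called between cycling and other wells where 1006 were called with them. Summed over the wells of each mouse, members held 1018359 to 38832160 counts and other wells 56775484 to 142431938 counts.

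More genes were detected in cycling wells at equal depth. After each well was thinned to 20000 counts, cycling wells held 4000 ± 209 genes and other wells 3390 ± 167 (SD of means per mouse, n = 8 mice), a difference of 610 that had the same sign in 8 of 8 mice (exact sign-flip permutation p = 0.00781, adjusted p = 0.0391 over 5 readouts). Total counts were 1595160 against 1339311 a well, higher in 6 of 8 mice (exact permutation, adjusted p = 0.247). Mitochondrial counts were 3.47% against 3.83%, lower in 7 of 8 mice (adjusted p = 0.234, exact permutation). Without depleted mouse 3, whose only member had more, that difference was -0.514 percentage points (exact permutation, adjusted p = 0.0391).

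The transplanted cells carry clonal barcodes, and the authors' table gives the barcode reads of each well. A barcode was read in 62 of 65 cycling wells (95.4%) and in 533 of 614 other wells (86.8%). The means per mouse were 85.5% and 86.8%, with 0% in depleted mouse 3, whose single member had none, and this comparison did not pass (exact permutation, adjusted p = 0.984). Without that mouse cycling wells were higher by 11.8 percentage points (exact permutation, adjusted p = 0.0781). In the 7 mice with a barcoded member, the Shannon index of the authors' table, whose definition is not given in the sources used here, was 0.245 ± 0.241 in cycling and 0.291 ± 0.283 in other wells (SD, n = 7, exact permutation, adjusted p = 0.312).

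Genes of mitosis led the rises in cycling wells, and most tested genes of DNA replication rose with them. Counts were summed per mouse over both kinds of well and fitted with the mouse as a block (quasi-likelihood test of edgeR, Benjamini-Hochberg adjusted). Depleted mouse 3 was left out of these sums because it had a single member, which left 7 mice. Of 13967 genes tested besides Mki67, 487 rose (3.49%) and 519 fell (3.72%) at an adjusted p under 0.05. Of the 60 genes of G2 and mitosis 52 rose and 0 fell, and of the 50 genes of S phase 37 rose and 0 fell. Their median log2 fold changes were 4.28 and 1.67, against -0.44 over all genes tested. Leaving out any 1 of the 7 mice lowered the 1006 calls to between 449, without depleted mouse 1, and 641, without control mouse 4.

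Top2a averaged 407 ± 153 CPM in cycling and 24.9 ± 10.7 CPM in other wells (SD, n = 7 mice). The 7 cycling sums ran from 248 through a median of 359 to 697 CPM and the other sums from 11.1 to 41.2 CPM, so the ranges did not overlap (log2 fold change 4.07, SE 0.35, edgeR adjusted p = 0.000570). Cyclin B1 (Ccnb1) ran from 37.2 to 377 CPM in cycling and from 5.25 to 20.8 CPM in other sums, with medians of 185 and 9.58 (3.92, SE 0.45, edgeR adjusted p = 0.00207). Its kinase Cdk1 ran from 65.3 to 270 CPM against 5.99 to 32.5 CPM, with medians of 172 and 16.7 (3.51, SE 0.47, edgeR adjusted p = 0.00393). Both genes were higher in the cycling sum of every mouse fitted.

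The 12 largest rises among genes of at least 20 CPM were Pimreg, Hmmr, Kif2c, Neil3, Ankle1, Bub1, Birc5, Ccnb2, Kif4, Cdca3, Kif15 and Kif11. Of these 12, 9 were on the G2 and mitosis list, among them the spindle motors Kif2c, Kif4, Kif11 and Kif15, the checkpoint kinase Bub1 and survivin (Birc5). Birc5 rose from 1.33 ± 1.78 to 235 ± 59.2 CPM and cyclin B2 (Ccnb2) from 1.20 ± 0.93 to 258 ± 107 CPM (SD, n = 7 mice). Pimreg, a mitotic regulator, was close to absent from other wells, with 39 counts over all 7 sums against 9558 in cycling wells. In single wells, Birc5 reached 20 CPM in 61.5% of members and in 0.489% of other wells.

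Genes that load and run the replication fork were higher too, by smaller factors, and other wells also held them. The helicase subunit Mcm5 averaged 472 ± 158 CPM in cycling and 156 ± 74.5 CPM in other wells (SD, n = 7 mice), with cycling sums from 187 to 696 CPM and other sums from 75.3 to 251 CPM (1.67, SE 0.31, edgeR adjusted p = 0.0159). The ranges overlapped, and Mcm5 was higher in the cycling sum of every mouse fitted. The sliding clamp Pcna rose from 232 to 641 CPM (1.49, edgeR adjusted p = 0.0039) and Mcm6 from 398 to 811 CPM (1.04, edgeR adjusted p = 0.000990). Among the enzymes that make DNA precursors, thymidine kinase (Tk1) rose from 20.2 to 286 CPM and ribonucleotide reductase subunit Rrm1 from 123 to 579 CPM. Of 18 tested histone genes of the replication clusters, 7 rose and 0 fell, with H2ac8 at 110 against 12.8 CPM. Their summed level stayed low, at 184 to 459 CPM in cycling and 46.7 to 105 CPM in other sums.

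**Figure D1:**
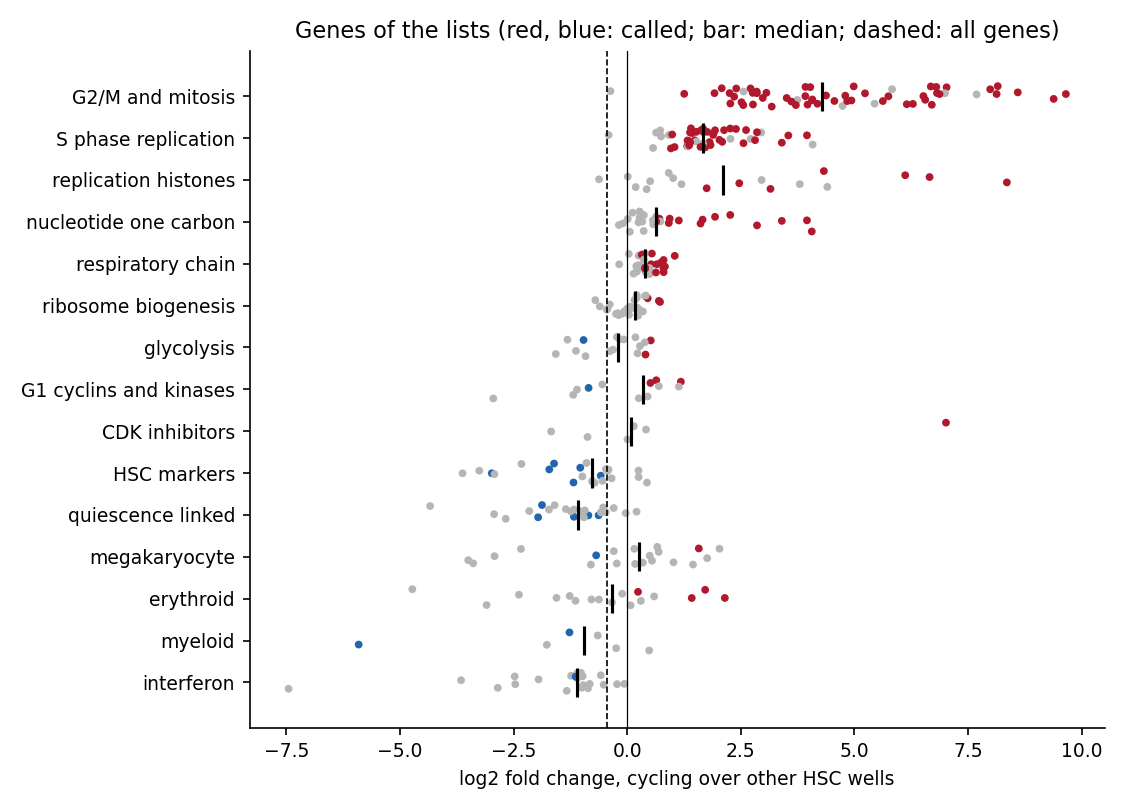
Log2 fold change of cycling over other HSC wells (horizontal axis) for the genes of 15 lists (rows), 1 point per gene. Red and blue points were called higher or lower by edgeR, grey points were not called, black bars are list medians (4.28 for G2 and mitosis, 1.67 for S phase) and the dashed line is the median of all genes, -0.44.

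Promoters of some cell cycle genes named above are shown, beside counts of short motifs. The motifs were counted over the whole G2 and mitosis list and the whole S phase list, not over called genes. The sequences run from 250 bases before to 50 bases after the annotated start (RefSeq, build GRCm38.p6), 5′ to 3′ on the gene's strand. Capitals mark TTTGAA, the core of the cell cycle homology region of mitotic genes, CCAAT, the box read by NF-Y, and the E2F-type spellings TTTGGCGC, TTTCGCGC, TTTCCCGC and TTTGCCGC, each on either strand. Mki67 lies at chr7:135716330-135716629, Top2a at chr11:99024140-99024439, Cdk1 at chr10:69352863-69353162 and Ccnb1 at chr13:100786437-100786736, all on the minus strand, and Mcm5 lies at chr8:75109259-75109558 on the plus strand.
Mki67: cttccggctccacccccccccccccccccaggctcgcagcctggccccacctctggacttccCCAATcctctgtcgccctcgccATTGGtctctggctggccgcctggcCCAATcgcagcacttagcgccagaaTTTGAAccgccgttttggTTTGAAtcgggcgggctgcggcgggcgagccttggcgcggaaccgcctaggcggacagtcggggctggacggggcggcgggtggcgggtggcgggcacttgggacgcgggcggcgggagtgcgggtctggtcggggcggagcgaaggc
Top2a: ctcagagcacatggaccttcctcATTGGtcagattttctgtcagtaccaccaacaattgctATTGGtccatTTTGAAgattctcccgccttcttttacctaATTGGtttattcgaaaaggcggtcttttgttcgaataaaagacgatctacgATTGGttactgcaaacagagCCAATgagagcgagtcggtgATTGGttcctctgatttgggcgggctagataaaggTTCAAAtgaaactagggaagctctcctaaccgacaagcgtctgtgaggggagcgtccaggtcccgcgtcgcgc
Cdk1: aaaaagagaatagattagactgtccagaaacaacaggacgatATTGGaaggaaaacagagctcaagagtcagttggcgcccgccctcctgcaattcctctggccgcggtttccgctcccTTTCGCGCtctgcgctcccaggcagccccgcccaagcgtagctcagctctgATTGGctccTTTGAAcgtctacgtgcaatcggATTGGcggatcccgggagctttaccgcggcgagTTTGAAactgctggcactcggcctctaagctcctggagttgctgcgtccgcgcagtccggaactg
Ccnb1: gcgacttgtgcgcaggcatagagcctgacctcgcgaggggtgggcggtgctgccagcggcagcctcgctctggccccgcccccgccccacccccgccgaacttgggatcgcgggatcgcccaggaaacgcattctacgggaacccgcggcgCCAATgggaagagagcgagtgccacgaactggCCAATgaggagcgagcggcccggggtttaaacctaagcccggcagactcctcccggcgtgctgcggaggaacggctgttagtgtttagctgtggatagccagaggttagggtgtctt
Mcm5: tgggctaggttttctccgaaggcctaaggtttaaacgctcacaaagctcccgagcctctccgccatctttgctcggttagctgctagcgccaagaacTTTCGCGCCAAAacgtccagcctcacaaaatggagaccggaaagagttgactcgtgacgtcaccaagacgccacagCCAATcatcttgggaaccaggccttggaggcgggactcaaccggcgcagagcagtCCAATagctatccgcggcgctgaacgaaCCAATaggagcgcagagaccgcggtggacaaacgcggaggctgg

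The Mki67, Top2a and Cdk1 windows each hold TTTGAA at 2 places, and the window of Ccnb1 holds 2 CCAAT boxes and no TTTGAA. The Mcm5 window holds 2 overlapping E2F-type matches, 3 CCAAT boxes and no TTTGAA. A promoter was found for 48 of the 60 G2 and mitosis genes and 38 of the 50 S phase genes. TTTGAA stood in 72.9% of the former, 10.5% of the latter, 12.2% of the 9714 promoters found for genes tested here and 18.1% of all 27025 promoters of the table. In the same order, the E2F-type spellings stood in 10.4%, 39.5%, 4.29% and 2.34%, and CCAAT in 70.8%, 60.5%, 39.01% and 37.8%. A match describes letters in a window and is not a measured binding site.

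Read well by well, the members spread over wells high in S phase genes, in G2 and mitosis genes, in both or in neither. The S phase list summed to a median of 10182 CPM in members and 1783 CPM in other wells, and the G2 and mitosis list to 5585 and 544 CPM. No other well reached the members' median of the G2 and mitosis list, and the highest held 3982 CPM. For S phase genes, 40 of 614 other wells lay at or above the members' median. Levels of 5000 CPM for the S phase list and 2000 CPM for the G2 and mitosis list, chosen after the wells were seen, described 3 sets of members. In 40 members the S phase list was at 5000 CPM or more, in 12 only the G2 and mitosis list was at 2000 CPM or more, and in 13 both were lower. Their median Mki67 was 190, 420 and 36.3 CPM.

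S phase RNA was also found in other HSC wells. In 84 of them (13.7%) the S phase list was at 5000 CPM or more, with a median Mki67 of 0 and Mcm5 at a median of 588 CPM. Of these, 53 came from control and 31 from depleted mice. Taking all HSC wells above either level, with or without Mki67, the shares of control mice 1 to 4 were 17.9%, 11.2%, 43.04% and 35.5%, and those of depleted mice 1 to 4 were 13.3%, 19.6%, 10.5% and 14.1%. Control mice 3 and 4 were the highest, control mouse 1 lay within the range of the depleted group, and so did control mouse 2. Among members, Mcm5 and Ccnb1 were both at 20 CPM or more in 26 wells, Mcm5 alone in 23, Ccnb1 alone in 5 and neither in 11.

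Among the kinases and cyclins that open the cycle, Cdk6 rose and Ccnd2 fell. Cdk6, a kinase that drives exit from rest, averaged 698 ± 136 CPM in cycling and 318 ± 98.7 CPM in other wells (SD, n = 7 mice), with ranges of 476 to 884 and 143 to 444 CPM that did not overlap (1.18, SE 0.12, edgeR adjusted p = 0.0013). Cdk4 rose from 466.1 to 724 CPM and cyclin D3 (Ccnd3) from 311 to 448 CPM. Cyclin D2 (Ccnd2) went the other way, from 833 ± 102 CPM in other wells to 481 ± 155 CPM in cycling wells (SD, n = 7 mice; -0.85, SE 0.19, edgeR adjusted p = 0.0323), lower in 7 of 7 mice. Its call was lost without control mouse 1, 3 or 4 and without any single depleted mouse of the 3 fitted, with adjusted p up to 0.0805. Of 6 tested CDK inhibitors, Cdkn3, a phosphatase of mitotic cells, rose. Cdkn1b (p27) was at 36.6 ± 19.1 against 31.9 ± 9.04 CPM and Cdkn1c (p57) at 4.95 ± 2.68 against 14.4 ± 9.73 CPM, and neither passed (edgeR adjusted p = 0.992 and 0.329).

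Some genes known from resting stem cells fell in members. Of 23 tested HSC marker genes 0 rose and 6 fell, namely Procr, Mllt3, Hlf, Mycn, Pdzk1ip1 and Esam, with a list median of -0.77 against -0.44 over all genes. Procr, the endothelial protein C receptor used to sort stem cells, ran from 0.812 through a median of 50.3 to 80.1 CPM in cycling and from 138 through 187 to 274 CPM in other sums. The ranges did not overlap (-2.98, SE 0.73, edgeR adjusted p = 0.0426). It reached 20 CPM in 17 of 65 members (26.2%) and 423 of 614 other wells (68.9%). The transcription factor Hlf averaged 75.02 ± 48.02 against 200 ± 70.5 CPM (SD, n = 7 mice; -1.61, SE 0.25, edgeR adjusted p = 0.00728). Mecom, another stem cell factor, was at 94.8 ± 51.5 and 151 ± 47.5 CPM and did not pass (edgeR adjusted p = 0.0904).

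The call of Procr was lost in each fit that left out a mouse other than depleted mouse 2, with adjusted p from 0.0632 to 0.0955, while Hlf kept its call in all 17 alternatives. A sum over wells cannot tell fewer wells with a transcript from less of it per well, so the shares of wells stand beside it. When means over wells of log2(CPM + 1) were compared instead, 4 of the 6 falls were called again, and Esam and Mycn were not (limma adjusted p = 0.985 and 0.421).

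The low Procr share went with S phase genes in both kinds of well. Procr was at 20 CPM or more in 12.5% of the 40 members with high S phase genes, 41.7% of the 12 members with high G2 and mitosis genes alone and 53.8% of the 13 members with neither. Among other wells it was at 20 CPM or more in 29.8% of the 84 with high S phase genes and in 75.05% of the 529 with neither. Hlf gave 37.5%, 91.7% and 69.2% in the 3 sets of members and 54.8% and 84.9% in the corresponding other wells. These shares pool wells over mice and carry no test.

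Over all genes tested 3.72% fell and the median log2 fold change was -0.44. Of 24 genes linked to quiescence, 5 fell and 0 rose, with a median of -1.09. They were Zfp36, Junb, Txnip, Btg1 and Jun. Txnip, an inhibitor of thioredoxin that is high in resting stem cells, fell from 1747 ± 223 to 782 ± 155 CPM (SD, n = 7 mice; -1.17, SE 0.08, edgeR adjusted p = 0.000258), and the ranges did not overlap. The immediate early gene Junb was at 69.1 ± 47.3 against 218 ± 53.7 CPM (-1.87, SE 0.24, edgeR adjusted p = 0.00316). Zfp36, which marks short-lived mRNAs for decay, was at 91.9 ± 46.4 against 331 ± 82.9 CPM (-1.96, SE 0.19, edgeR adjusted p = 0.000990). In the comparison of means over wells, 3 of these 5 were called, without Jun and Btg1.

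The lineage lists are set beside the shares over all genes tested, of which 3.49% rose and 3.72% fell. Of 20 tested megakaryocyte genes 1 rose and 1 fell, which is near these shares, and the gene that rose was Itga2b. Itga2b, the platelet integrin CD41, averaged 629 ± 331 CPM in cycling and 199 ± 70.3 CPM in other wells (SD, n = 7 mice), ranging from 336 to 1136 and from 71.3 to 265 CPM (1.58, SE 0.40, edgeR adjusted p = 0.0476). Its call was lost without any 1 of control mice 1, 3 and 4 and depleted mice 1, 2 and 4, with adjusted p up to 0.115. Opposite to Procr, Itga2b was more frequent in members with high S phase genes or high G2 and mitosis genes than in those with neither. It reached 20 CPM in 87.5% of the 40 members with high S phase genes. In the 12 with high G2 and mitosis genes alone the share was 75%, and in the 13 with neither 30.8%. Among other wells the shares were 77.4% with high S phase genes and 35.2% with neither. All these shares pool wells over mice and carry no test. Pf4, platelet factor 4, ran from 43.8 to 2405 CPM in cycling and 45.9 to 442 CPM in other sums, and von Willebrand factor (Vwf) was at 226 ± 150 and 161 ± 87.3 CPM. Neither passed (edgeR adjusted p = 0.299 and 0.784).

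Of 17 tested erythroid genes 4 rose and 0 fell, a larger share of rises than the 3.49% over all genes tested. The list median was -0.33. The 4 that rose were the transcription factor Gata1 (109 ± 54.04 against 24.96 ± 14.2 CPM), the erythropoietin receptor Epor (40.97 ± 14.1 against 14.9 ± 4.06 CPM), the water channel Aqp1 (131 ± 51.4 against 38.5 ± 9.23 CPM) and Car2 (2441 ± 258 against 2071 ± 240 CPM, all SD, n = 7 mice). Klf1 was at 15.2 ± 16.4 against 3.89 ± 0.82 CPM and did not pass (edgeR adjusted p = 0.811). Of 6 tested myeloid genes 2 fell, Prtn3 from 288 to 125 CPM and Mpo, where 3.72% of all genes tested fell. Of these falls 1 was called again by means over wells. Mpo was near 0 in both, with 7 counts over the 7 cycling sums and 1555 over the other sums, which held more counts in total. It reached 20 CPM in 0 of 65 members and 8 of 614 other wells. Its call was lost in 6 of the 7 fits that left out a mouse.

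Lists of other marrow cells were not uniformly lower in members than in other wells. In the summed libraries, 8 of 10 B cell genes (Cd79a, Ebf1 and Pax5 among them) and 7 of 10 T and NK cell genes (Cd3e, Cd3d and Cd3g among them) had 0 counts in every cycling sum. In the other sums 1 and 7 genes of these lists were at 0 throughout. The cycling sums held fewer wells and counts, which makes 0 counts more likely there. By summed level, the B cell list was at 0.101 to 72.2 CPM in cycling and 32.9 to 66.02 CPM in other sums. It was higher in cycling in 4 of 7 mice. The summed level of the neutrophil list was 0 to 3215 CPM in cycling and 1.39 to 7.82 CPM in other sums, the highest being depleted mouse 4 with the well named above. The T and NK cell list summed to 48.5 to 237 CPM in cycling and 38.9 to 82.7 CPM in other sums. It was higher in cycling in 5 of 7 mice. Of its 3 tested genes Nkg7 rose, from 28.3 to 94.4 CPM, and Klrb1c fell, from 20.2 to 3.20 CPM. Of 2 tested B cell genes Vpreb1 fell, from 1.303 to 0.104 CPM. Neither fall was called by means over wells. The list of dendritic cells and macrophages was at 56.6 to 761 CPM against 730 to 1820 CPM, with 0 of 8 tested genes called. That of mast cells and basophils was at 5.51 to 96.3 CPM against 0.934 to 15.2 CPM, with 0 of 2 tested genes called. It was higher in cycling in 5 of 7 mice.

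Metabolic lists held between 2 and 14 genes that rose, where 3.49% of all genes tested rose. Of 29 nucleotide and one-carbon genes 14 rose and 0 fell (median 0.64), 6 of which stand on the S phase list as well. Outside that list, Mthfd2, a mitochondrial folate enzyme, rose from 8.79 to 75.9 CPM and deoxycytidine kinase (Dck) from 41.5 to 130 CPM. Of 30 respiratory chain genes 13 rose and 0 fell (median 0.40), with cytochrome c (Cycs) at 174 against 83.4 CPM and Atp5b at 1613 against 1221 CPM. Of 30 ribosome biogenesis genes 3 rose, Nop56, Nhp2 and Nop10. Of 16 glycolysis genes, Tpi1 and Gapdh rose and the glucose transporter Slc2a3 fell.

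The 12 largest falls among genes of at least 20 CPM with the same sign in every mouse were Gbp4, H2-K2, Ifi44, Procr, Aff4, Dusp2, Ltb, Cpne8, Spo11, Mettl27, Cyp4f13 and Zfp36. Dusp2, a phosphatase of MAP kinases, fell from 258 ± 71.9 to 48.997 ± 19.5 CPM (SD, n = 7 mice; -2.45, SE 0.22, edgeR adjusted p = 0.000724). Lymphotoxin beta (Ltb) fell from 145 ± 31.6 to 33.9 ± 19.9 CPM (-2.32, SE 0.42, edgeR adjusted p = 0.0146). The interferon-linked genes Gbp4 and Ifi44 were at 6.35 against 72.2 CPM and 16.99 against 84.99 CPM. With 1 mouse left out, the call of Gbp4 was lost in 7 of 7 fits, those of H2-K2, Ifi44, Cpne8 and Cyp4f13 in 6, that of Aff4 in 5 and that of Spo11 in 4, with adjusted p up to 0.110. Dusp2, Ltb, Mettl27 and Zfp36 were called in all 7 such fits. Over all 17 alternatives, Zfp36 kept its call, while Dusp2 lost it in 1 and Ltb and Mettl27 in 2 each. Of 21 tested genes of the interferon list 1 fell, Gbp2, where 3.72% of all genes tested fell. Its fall was not called by means over wells. All 21 had a negative log2 fold change, with a median of -1.10 against -0.44 over all genes tested. That baseline varied with level, from -1.32 for genes under 20 CPM to -0.15 for those of 20 CPM or more. How many of all genes tested were negative was not counted, so the 21 cannot be weighed by sign.

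When wells were averaged on the scale log2(CPM + 1) instead of summed, 480 of the 487 rises and 177 of the 519 falls were called again, and the split became 1893 rises to 258 falls by limma. The sums held 4 to 20 members and 59 to 84 other wells a mouse. Genes under 20 CPM had a median log2 fold change of -1.32 and supplied 251 of the 519 falls and 32 of the 487 rises from 6443 genes tested. Genes of 20 CPM or more supplied 268 falls and 455 rises from 7524 tested, with a median of -0.15.

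No gene was called between depleted and control mice within the cycling wells. With 4 control mice against depleted mice 1, 2 and 4, edgeR called 0 of 12212 genes (0%), 497 having an unadjusted p under 0.05, while DESeq2 called 71. Of the 60 G2 and mitosis genes 55 were higher in depleted mice (median log2 difference 0.60, against 0.02 over all genes), and of the 50 S phase genes 34 were lower (median -0.23). Top2a stood at 251, 296, 363 and 323 CPM in control mice 1 to 4 and at 462, 701 and 477 CPM in depleted mice 1, 2 and 4, with no overlap (0.82, SE 0.22, edgeR adjusted p = 0.99999). Cdk1 stood at 136, 65.9, 174 and 160 CPM against 257, 272 and 258 CPM, again with no overlap (0.97, SE 0.32, edgeR adjusted p = 0.99999). Ccnb1 stood at 161, 230, 89.4 and 38.05 CPM against 185, 379 and 276 CPM, which overlap. How many of the 12212 genes showed no overlap was not counted, so such a gap in single genes cannot be weighed.

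Hlf was at 30.04, 36.9, 52.96 and 33.2 CPM in the members of control mice 1 to 4 and at 142, 108 and 125 CPM in those of depleted mice 1, 2 and 4 (1.70, SE 0.33, edgeR adjusted p = 0.878). All 3 depleted mice lay above all 4 control mice, and the difference did not pass over all genes. As above, the share of all genes with such a gap was not counted, so the gap cannot be weighed. Cdkn1b was at 50.4, 50.2, 58.2 and 48.7 CPM against 26.9, 9.59 and 15.3 CPM (-1.59, SE 0.56, edgeR adjusted p = 0.99999). Pf4 ran from 44.9 to 2427 CPM over the control and from 253 to 1090 CPM over the depleted mice, which overlap. Whether the treatment difference itself differed between cycling and other wells was tested as an interaction, and edgeR called 0 of 16942 genes (0%), 527 having an unadjusted p under 0.05, while DESeq2 called 248.

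The difference between cycling and other wells was also compared between HSC of 7 mice and MkP, another sorted population, of 5 mice. The HSC sums came from control mice 1 to 4 and depleted mice 1, 2 and 4. Those of MkP came from control mouse 2 and depleted mice 1 to 4. MkP wells of the other control mice are in the series and were left out by choice. The contrast of the populations is therefore partly mixed with treatment and week. In MkP, 317 of 818 wells held Mki67 at 20 CPM or more. The difference between cycling and other wells was larger in HSC than in MkP for 21 of 18141 genes (0.116%) and smaller or more negative for 17 (0.0937%) by edgeR's interaction test with Benjamini-Hochberg adjustment. Cdk6 had the smallest p. It was at 709 ± 141 against 312 ± 99.5 CPM in cycling and other HSC (SD, n = 7 mice) and at 1282 ± 140 against 1531 ± 149 CPM in cycling and other MkP (SD, n = 5 mice), an interaction of 1.49 (SE 0.15, edgeR adjusted p = 0.00446). The levels of other HSC wells were the lowest of the 4.

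Of 50 S phase genes 5 (Mcm6, Dut, Dnmt1, Rfc2 and Nasp) had a larger difference in HSC and 0 a smaller one (median interaction 1.25, against -0.46 over all genes). Mcm6 was at 822 against 389 CPM in HSC and at 1078 against 1128 CPM in MkP (1.16, SE 0.14, edgeR adjusted p = 0.0148). Of the 60 G2 and mitosis genes 0 were called, and Ccnb1 was at 196 against 11.3 CPM in HSC and 249 against 13.5 CPM in MkP. In the other direction, the small GTPase Gimap6 was at 151 against 392 CPM in HSC and at 75.1 against 75.8 CPM in MkP (-1.41, SE 0.19, edgeR adjusted p = 0.0148), and Gstm1, a glutathione transferase, at 93.1 against 294 CPM and 53.8 against 64.5 CPM (-1.46, SE 0.21, edgeR adjusted p = 0.0197).

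For Itga2b and Procr, the mean of cycling HSC lay between those of other HSC and of MkP. Itga2b was at 638 ± 337 CPM in cycling HSC and 194 ± 69.3 CPM in other HSC (SD, n = 7 mice), against 1380 ± 230 and 1440 ± 132 CPM in MkP (SD, n = 5 mice). Procr was at 39.4 ± 31.4 CPM in cycling HSC, 195 ± 46.3 CPM in other HSC and at 0.560 and 2.07 CPM in MkP. Neither interaction passed (edgeR adjusted p = 0.212 and 0.975). These counts were the least stable of all comparisons, since leaving out depleted mouse 1 or depleted mouse 4, or admitting wells of more than 10000 genes, left 0 genes called. Without control mouse 2, the only control mouse whose MkP were read, 4 genes were called, and without depleted mouse 2 or 3 there were 6 or 7.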

How the data were processed

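Smart-seq2 counts per gene of 1727 single-cell columns (HSC of 8 mice, MkP of 5) were read from the matrix the authors deposited. By choice 1343 further columns were not used, among them MkP of the other control mice. Per the submitters' processing notes, the tools named were Trim Galore 0.5, STAR 2.6.0 and HTSeq 0.6.1, while the sources used here do not name a genome build or annotation. The libraries carry no molecular identifiers, so counts are reads. The authors' deposited table of wells gave the count of barcode reads, taken as a barcode where above 0, and a Shannon index, a score used as deposited. Counts of 107 symbols on more than 1 row were summed.

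Cells are not replicates: wells were summed per mouse, the mouse of each well being named by its label. Mice with fewer than 3 cycling wells were left out of HSC sums. The main test was edgeR 4.0.16 (R 4.3.3) with TMM scaling, its default filter on low counts and the mouse as a block, since both kinds of well came from the same mouse. Calls used a Benjamini-Hochberg adjusted p under 0.05. DESeq2 1.42.0 and limma 3.58.1 (means over wells of log2(CPM + 1)) were alternatives, as were other thresholds, scaling and filters, thinned wells, fits without the block and each mouse left out; the limma fit and the removal of 2 wells were chosen after seeing the data. Single values used exact permutation tests (Python 3.11.15, SciPy 1.17.1) over 70 labelings or 256 sign flips, whose smallest p is 0.00781.

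Named genes were the 12 largest changes each way among called genes of at least 20 CPM with the same sign in every mouse, plus genes of the 23 lists. Members and lists were chosen with earlier results of these data known. Depth in passing HSC wells ran from 28152 to 5315421 counts (median 1326554). No doublet caller was run, and 18 wells of over 10000 genes were left out. With them 73 HSC wells were cycling, where 65 were without them. The mean share was then 13.5% in control and 7.79% in depleted mice (exact permutation p = 0.286). The fit was tested on simulated data. Some genes of the lists are not reported here.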

Additional observations from a re-analysis of the deposited data

Results flagged for a closer look

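In 55 groups of 4 mice examined for a mouse far from the rest, 4 stood out, where chance flags about 1 in 20. The share of cycling wells with a barcode was 0% in depleted mouse 3, which had 1 member, and 100% in the other depleted mice. Pf4 was at 2405 CPM in the cycling wells of control mouse 2, against 43.8 to 304 CPM in the other control mice. Klf1 was at 0 CPM in the cycling wells of control mouse 1, against 30.8 to 34.3 CPM in the others. In control mouse 4, the well high in erythroid genes held Klf1 at 276 CPM and 1849717 of the 15960004 counts of the sum, so that level rests on 1 well. Mpo was at 3.48 CPM in the other wells of control mouse 4, against 0.435 to 0.680 CPM.

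The difference between cycling and other wells differed between HSC and MkP for 21 genes in one direction and 17 in the other (edgeR interaction, Benjamini-Hochberg adjusted). On the log2 scale, HSC minus MkP was 2.04 for Aqp1, 1.77 for Wdhd1, 1.49 for Cdk6, 1.22 for Dnmt1, 1.18 for Dut, 1.17 for Nasp, 1.16 for Mcm6, 1.01 for Rfc2, 1.01 for Tufm, 0.99 for Prelid3b, 0.96 for Map4k1 and 0.95 for Pmf1. It was -1.46 for Gstm1, -1.41 for Gimap6, -1.05 for Gimap1, -0.93 for Tnfaip8 and -0.28 for B2m. Without the 2 wells high in neutrophil or erythroid genes, Aqp1, Wdhd1 and Nasp lost their calls.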

How the results depend on the processing

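The 1006 genes called between cycling and other HSC wells became 531 at an Mki67 threshold of 5 CPM, 401 at 100 CPM, 662 in wells thinned to 20000 counts, 3536 with DESeq2, 2151 with limma on means over wells, and 449 to 641 when 1 mouse was left out. The share of rises among these calls moved from 48.4% to 28.8% with DESeq2 and 88.01% with limma. Without the mouse as a block, edgeR called 910 genes between cycling and other wells (62.4% rises) and 68 genes for the difference between HSC and MkP. The 38 genes of that difference became 2 at 5 CPM, 21 at 100 CPM, 0 without the upper limit on genes, 70 in thinned wells, 1121 with DESeq2, 15 with no filter on low counts, and 0 to 49 when 1 mouse was left out. Between treatments within cycling wells, DESeq2 called 71 genes where edgeR called 0; for the interaction with treatment it called 248, and thinned wells gave 2. The share of cycling wells differed by -7.76 to -0.908 percentage points when 1 mouse was left out. The mitochondrial difference passed without the upper gene limit (-0.431 percentage points) and without depleted mouse 3 (-0.514). Of the readouts, these changed sign: barcoded wells without depleted mouse 3 (11.8 percentage points) and the Shannon index at 5 CPM (0.0193) and 100 CPM (0.0120). The cause was not tested for any of these. With 4 to 20 cycling wells a mouse, the number of wells limits the precision.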
